A study of Homo sapiens with 8 samples.

Results

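Gene expression in HCT-116, an epithelial line from a human colorectal cancer, was compared between 3 samples with an siRNA against *HHEX* (siHHEX 1, siHHEX 2 and siHHEX 3) and 2 samples with a control siRNA (siNC 1 and siNC 2), 5 of the 8 samples of the series. The other 3 samples carried siRNAs against *YAP1* and *WWTR1* (siYAP/TAZ, 2 samples) or against *TEAD1* to *TEAD4* (siTEAD1/2/3/4, 1 sample) and are used only beside the siHHEX values. The samples were chosen by their labels. The methods of the study list a separate siRNA for each siHHEX number. The number in a sample's label was taken to be that of its siRNA, which no source states outright, and on this reading the siHHEX samples differ in siRNA as well as in sample. Moreover, the label of siHHEX 3 names the knockdown under another tag than the other labels do. It was also registered apart from the other samples, siNC included. For siHHEX 3, the siRNA and any difference in handling cannot be told apart. Nothing in the labels says that the samples of a group came from separate cultures, so the p-values measure only the spread between these samples, which may be technical. Expression is given in FPKM, which scales the fragments of a gene by its transcript length and by the depth of the library, for 20030 rows per sample. A gene was tested when it reached 1 FPKM in at least 2 of the 5 samples, which 10321 rows did. Tests used limma on log2(FPKM + 1), and adjusted p-values are Benjamini-Hochberg values over all of these rows. The added 1 FPKM makes fold changes too small for genes near or under 1 FPKM.

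HHEX is a homeodomain transcription factor of the endoderm, the blood and the vascular lineages, known mostly as a repressor that recruits Groucho/TLE corepressors. The TEAD factors bind DNA and are switched on by the coactivators YAP and TAZ, which the kinases of the Hippo pathway hold back in the cytoplasm. The study asks how HHEX acts together with YAP and TEAD in colorectal cancer cells, and the comparison of siHHEX with siNC shows which transcripts differ when *HHEX* is lowered.

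The transcript stretches matched by the siRNAs are shown because, if the numbers of samples and siRNAs match, each siHHEX sample rests on 1 of them. All lie in exon 4 of *HHEX* on the plus strand of chromosome 10 (GRCh38). Apart from the TT overhang of siHHEX 1 and 2, each matches the siRNA of that number in the methods of the study exactly. The siRNA of that number in the supplementary list is 1 edit away. Capitals mark the bases that pair with bases 2 to 8 of the guide strand, the seed. The sites of siHHEX 1 (chr10:92694599-92694617) and siHHEX 2 (chr10:92694648-92694666) are in the coding sequence, and that of siHHEX 3 (chr10:92695158-92695178) is in the 3′ UTR. The 3 seeds differ from each other. That of siHHEX 3, which is listed as 21 bases without the TT of the others, assumes pairing over all 21. The sequence of each siRNA is listed in a pair of versions that differ by 1 edit, which for siHHEX 1 and 2 lies within the bases in capitals. Which version was used is not known, and the capitals are those of the transcript and of the version in the methods.
siHHEX 1: gtgatcagaggCAAGATTt
siHHEX 2: ggatagctctcAATGTTCg
siHHEX 3: cccacttaatggaAAGGCAAa

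*HHEX*, from 92689955 to 92695647 on chromosome 10, was at 8.60 and 9.06 FPKM in siNC 1 and 2, and at 3.25, 3.54 and 1.85 FPKM in siHHEX 1, 2 and 3. Every siHHEX value lay below both siNC values, and siHHEX 3 was the lowest. On average 32.6% of the siNC level was left, a log2 fold change of -1.37 (SE 0.204, adjusted p = 0.00765 from limma). The direction held with any 1 sample left out, but the adjusted p from limma was 0.0804 without siNC 1 and 0.0729 without siNC 2. The markers of the line were present in all 5 samples, with *KRT8* between 1591 and 1757 FPKM, *KRT18* between 718 and 917 FPKM, *KRT19* between 662 and 975 FPKM and *EPCAM* between 116 and 174 FPKM. *CDH1*, the epithelial cadherin, was between 8.16 and 9.52 FPKM and *CDX2*, an intestinal transcription factor, between 3.86 and 6.24 FPKM. Every siHHEX value of *CDX2* (5.81, 5.64 and 6.24 FPKM) lay above both siNC values (3.86 and 4.47 FPKM). For *EPCAM*, *KRT18* and *CDH1* every siHHEX value lay below both siNC values, as for 34.3% of all tested genes. *VIL1*, the brush border protein villin, was at or near 0, with at most 0.0215 FPKM. Of the markers of other cell types, *PTPRC* (leukocytes), *COL1A2* (fibroblasts), *PECAM1* (endothelium) and *ALB* (hepatocytes) stayed at or below 0.124 FPKM, and *COL1A1* (fibroblasts) was between 0.647 and 1.37 FPKM.

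With an adjusted p under 0.05, 1696 genes rose (16.4% of those tested) and 1749 fell (16.9%). With the study's criterion of a change of more than 2-fold and a p below 0.05, for which the unadjusted p was taken here, 75 rose (0.727%) and 98 fell (0.95%). These counts were 204 and 244 with 0.1 FPKM added in place of 1, 119 and 61 with each sample scaled to the same median, and 129 and 224 without siHHEX 2. The siHHEX values of 3457 genes (33.5%) all lay above both siNC values, and those of 3543 genes (34.3%) all lay below. The siNC samples were close to each other, with 4 genes differing by more than 2-fold, and the count by adjusted p rested on having both of them. Without siNC 1, 17 genes passed an adjusted p of 0.05 from limma, and without siNC 2, 4 genes did, the lone siNC sample then being assumed to vary like the siHHEX samples. These 4 genes, *F3*, *CCND1*, *AMOTL2* and *UGCG*, passed with any 1 sample left out, and each fell. Without siHHEX 2 the count was 5344 genes, and without siHHEX 1 it was 1709. With each sample scaled to the same median, 60.9% of 3649 called genes rose, against 49.2% of 3445 without the scaling, so the balance between rises and falls depends on the scaling. With no filter on low values, 15685 genes were tested and 752 rose and 543 fell, and genes named below that then missed the threshold are pointed out.

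The change of a gene in siHHEX went with the GC content of its exons. Across 10268 genes, which are not independent replicates, Spearman coefficients of the change against the siNC mean with GC content were 0.668, 0.597 and 0.746 in siHHEX 1, 2 and 3. The same coefficient was 0.0532 and -0.0655 in siYAP/TAZ 1 and 2, 0.29 in siTEAD1/2/3/4, and 0.208 for siNC 2 minus siNC 1. In the decile of genes lowest in GC content, from 31 to 38.6%, the median change was -0.50, -0.26 and -0.61 on the log2 scale, and 494 genes fell while 2 rose. In the highest decile, from 61.5 to 76%, it was 0.35, 0.33 and 0.54, and 456 genes rose while 4 fell. The median change rose from each decile to the next in every siHHEX sample, and siHHEX 2 changed least in the deciles of low GC content. Changes also went with exon length, with Spearman coefficients of -0.283, -0.236 and -0.306, longer genes being lower. GC content and length together took 43.4, 32.9 and 54.5% of the variance of the changes in siHHEX 1, 2 and 3, against 1.82 and 0.7% in siYAP/TAZ 1 and 2, 8.67% in siTEAD1/2/3/4 and 5.15% for siNC 2 minus siNC 1. Whether the trend arose in the cells or in the making of the libraries was not tested.

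**Figure D1:**
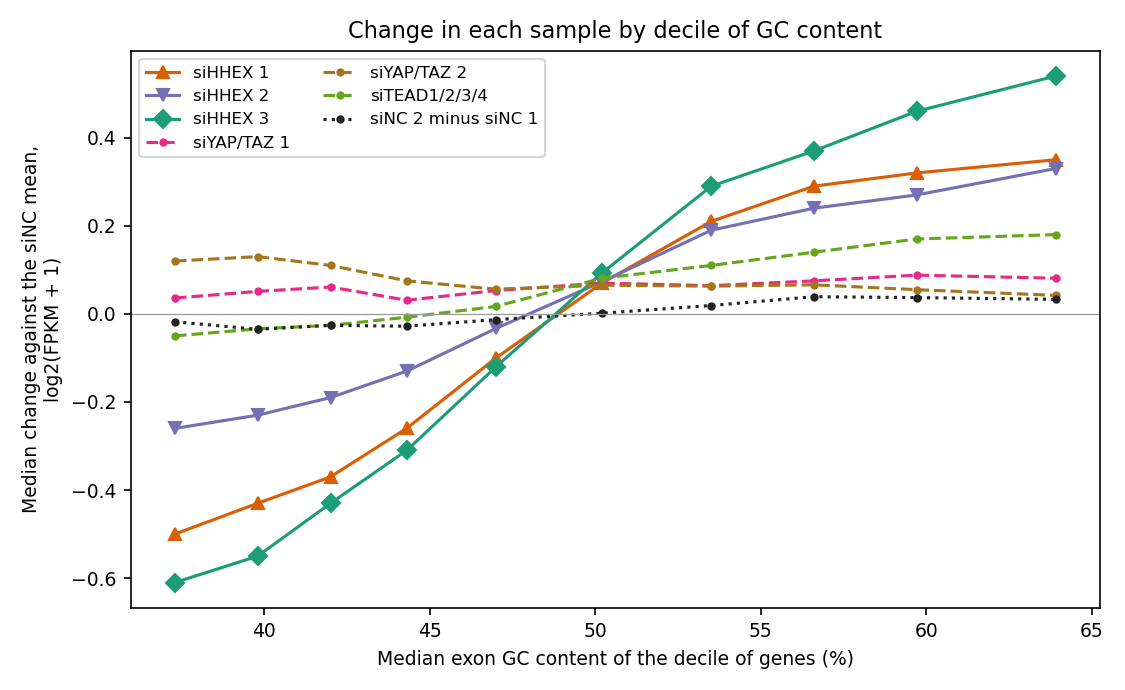
Median change against the siNC mean, in units of log2(FPKM + 1), of the genes in each decile of exon GC content (x axis, median of the decile in %), with 1 line per sample and a dotted line for siNC 2 minus siNC 1. The siHHEX lines climb from -0.50, -0.26 and -0.61 in the lowest decile to 0.35, 0.33 and 0.54 in the highest, while the siYAP/TAZ lines stay between 0.031 and 0.13.

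Each sample was then corrected for its trend on GC content and length with splines, and the fit was repeated on 10268 genes. After the correction 489 genes rose (4.76%) and 450 fell (4.38%) by adjusted p, and 17 rose (0.166%) and 49 fell (0.477%) by the study's criterion. Of the genes called before, 331 that rose and 319 that fell were called again, 1354 and 1422 were not, and none was called in the opposite direction. A further 158 rose and 131 fell only after the correction. Among the genes called by adjusted p, the median GC content was 58.2% for those that rose and 40.7% for those that fell before the correction, and 47.3% and 49.8% after it, against 48.5% for all tested genes. Among those past the study's criterion it was 58.9% and 40.9% before and 44.1% and 53.9% after, so the order of rises and falls turned. Of the genes past the study's criterion, 9 of 75 that rose and 29 of 98 that fell were also past it after the correction. The lists below are therefore given both ways. Without siNC 1 or without siNC 2, 4 and 2 genes were called after the correction by limma, and without siHHEX 1 and siHHEX 2 the counts were 243 and 2026. A correction of this kind also takes off any change in the cells that follows GC content or length.

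The 10 genes that fell most among those called with and without the correction, and with no overlap between the groups, were *F3*, *CCND1*, *AMOTL2*, *UGCG*, *HIPK3*, *NCEH1*, *RNMT*, *AXL*, *KRT80* and *PARD6B*. *F3* encodes tissue factor, the starter of blood clotting and a YAP target, and lies on chromosome 1 from 94529173 to 94541759. It was at 79.6 and 77.7 FPKM in siNC and at 20.3, 17.9 and 20.6 FPKM in siHHEX. The siHHEX values were close to each other, with a mean at 24.9% of the siNC mean, a log2 fold change of -1.95 (SE 0.115, adjusted p = 0.00146 from limma) and of -1.75 after the correction (adjusted p = 0.00242). *CCND1*, cyclin D1 of the G1 phase, was at 420 and 441 FPKM in siNC and at 119, 147 and 97.6 FPKM in siHHEX. It was the most abundant of the 10 genes and fell by 1.84 on the log2 scale (SE 0.161, adjusted p = 0.00437 from limma). *UGCG*, which makes glucosylceramide, the first glycosphingolipid, was at 25.1 and 24.6 FPKM against 6.72, 8.30 and 7.24 FPKM. Its log2 fold change was -1.62 without and -1.22 with the correction, and its GC content is 39.3%. *HIPK3*, a homeodomain-interacting kinase, was at 9.59 and 10.4 FPKM against 2.34, 3.33 and 2.17 FPKM. *NCEH1*, a lipid ester hydrolase, was at 14.0 and 12.9 FPKM against 5.84, 3.55 and 2.86 FPKM, and *PARD6B*, a cell polarity adaptor, at 6.74 and 5.92 FPKM against 1.51, 2.33 and 1.20 FPKM. *RNMT*, the mRNA cap methyltransferase, was at 17.1 and 16.4 FPKM against 4.31, 7.75 and 3.87 FPKM, with siHHEX 2 nearest to siNC. The keratin gene *KRT80* was at 5.70 and 6.37 FPKM against 0.935, 1.11 and 2.71 FPKM, with siHHEX 3 nearest to siNC. *AXL* and *KRT80* missed the threshold with no filter.

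The 10 genes that rose most by the same rule were *FMC1*, *STK40*, *HIST3H2A*, *LAMTOR4*, *ID3*, *TM7SF2*, *OLFM2*, *TMEM141*, *SDSL* and *EMC6*. Their log2 fold changes ran from 1.27 to 1.48, and those of the genes that fell most from -1.95 to -1.47. The largest rise was thus smaller than the largest fall, but the ranges overlapped in size. *FMC1*, an assembly factor of the mitochondrial ATP synthase, was at 2.42 and 2.88 FPKM in siNC and at 11.2, 7.04 and 9.63 FPKM in siHHEX, 350% of the siNC mean (log2 fold change 1.48, SE 0.186, adjusted p = 0.00645 from limma). It was the gene with the highest fold change of all called without the correction too. *ID3*, an inhibitor of basic helix-loop-helix factors, was at 33.5 and 28.9 FPKM against 87.3, 73.7 and 78 FPKM (log2 fold change 1.32, SE 0.124, adjusted p = 0.00437 from limma). *LAMTOR4*, a subunit of the Ragulator complex that anchors mTORC1 signalling to lysosomes, was at 20.7 and 20.4 FPKM against 57.1, 45.7 and 57.1 FPKM. *STK40*, a serine/threonine kinase, was at 4.48 and 3.95 FPKM against 13.1, 9.36 and 17.7 FPKM, a wider spread among the siHHEX samples. *TM7SF2*, a sterol reductase of cholesterol synthesis, was at 2.38 and 3.62 FPKM against 8.33, 6.98 and 11.6 FPKM, and *EMC6*, a subunit of the ER membrane protein complex, at 52.6 and 48.0 FPKM against 119, 109 and 142 FPKM. The histone H2A gene *HIST3H2A* was at 6.33 and 5.96 FPKM against 15.1, 20.4 and 18.1 FPKM, but reads of histone genes can be shared between near-identical copies. *FMC1* and *HIST3H2A* had a GC content of 49.8 and 52.4%, and the other genes from 56.8 to 62.9%. The log2 fold change of each of the 10 was smaller after the correction, from 0.72 for *EMC6* to 1.27 for *FMC1*.

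**Figure D2:**
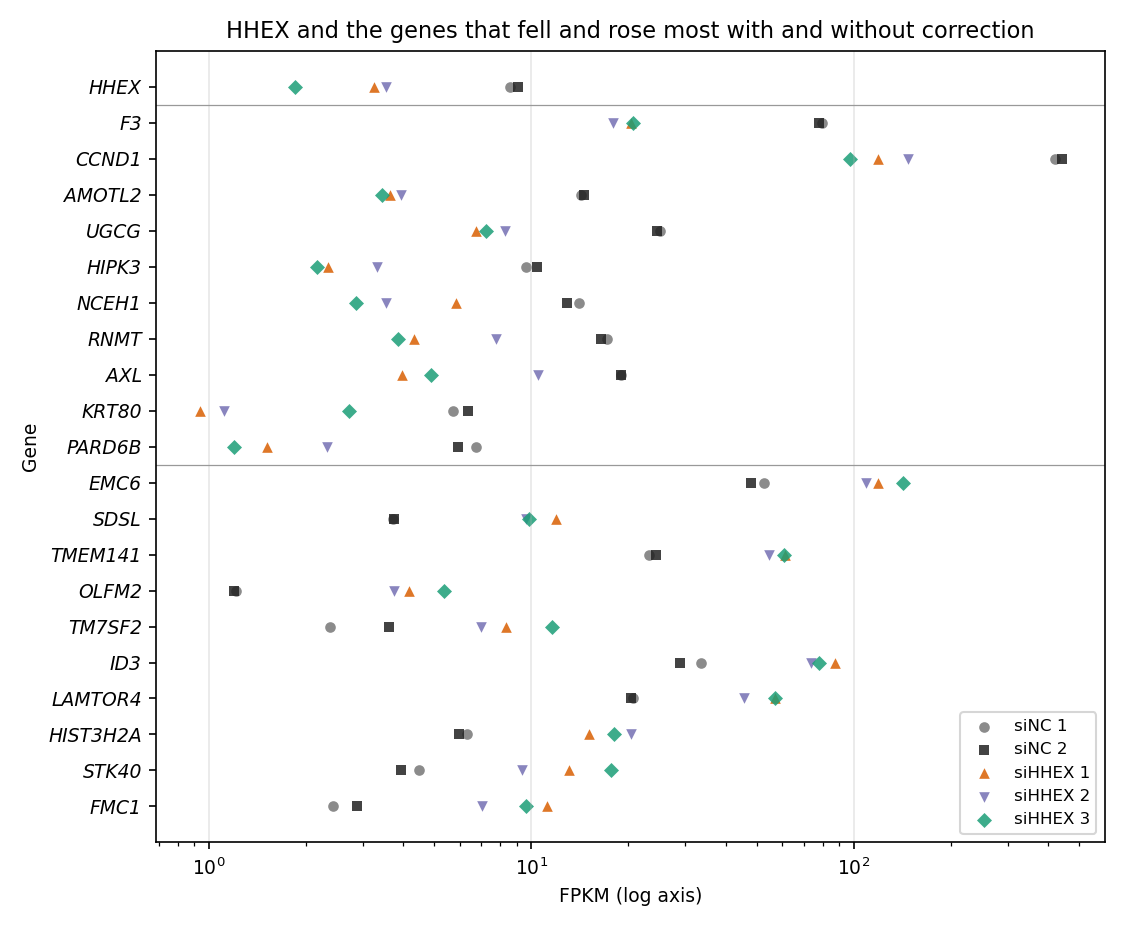
FPKM (log axis) of *HHEX*, of the 10 genes that fell most and of the 10 that rose most among those called with and without the correction, with 1 symbol per sample. For every gene the 3 siHHEX symbols lie on 1 side of both siNC symbols, as the rule for choosing them requires.

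Most of the tested genes known as targets of YAP and TEAD fell. Of 22 listed, 16 were tested, and 12 fell and none rose, against 16.9% and 16.4% of all tested genes. After the correction 13 fell and none rose. All 16 had a negative log2 fold change, with a median of -0.88 against -0.0086 for all tested genes, and -0.82 after the correction against -0.016. The median change of the list was -1.07, -0.77 and -0.94 in siHHEX 1, 2 and 3, and -1.08, -0.66 and -0.86 after the correction. For 13 of the 16 every siHHEX value lay below both siNC values, which held for 34.3% of all tested genes. The list has a median GC content of 50%, near that of all tested genes.

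*AMOTL2*, an angiomotin that binds YAP and is itself a target, was at 14.3 and 14.6 FPKM in siNC and at 3.65, 3.93 and 3.44 FPKM in siHHEX (log2 fold change -1.73, SE 0.121, adjusted p = 0.0029 from limma). *CTGF* (CCN2), a matricellular protein, was at 1.62 and 1.76 FPKM against 0.0932, 0.162 and 0.241 FPKM. Its siHHEX values were all under 0.25 FPKM, and its log2 fold change of -1.21 (SE 0.113, adjusted p = 0.00437 from limma) understates this because of the added 1 FPKM. *CYR61* (CCN1), its relative, was at 9.83 and 10.6 FPKM against 3.38, 3.07 and 4.18 FPKM, a log2 fold change of -1.31 (SE 0.144). *AXL*, a receptor tyrosine kinase, was at 18.9 FPKM in both siNC samples and at 3.98, 10.5 and 4.88 FPKM in siHHEX, where siHHEX 2 stood apart (log2 fold change -1.51, adjusted p = 0.0146 from limma). *PTPN14*, a phosphatase that binds YAP, was at 4.83 and 5.46 FPKM against 1.45, 2.50 and 1.70 FPKM, and *LATS2*, a Hippo kinase that YAP induces, at 3.65 and 3.71 FPKM against 1.32, 1.79 and 1.89 FPKM. *CRIM1*, *ASAP1*, *DOCK5*, *MYOF* and *NUAK2* also fell in both fits, with log2 fold changes from -0.92 to -0.38. Of these, *DOCK5* and *NUAK2* missed the threshold with no filter, as *AXL* did. *NUAK2* also missed it with median scaling and with the replicate number as a block. In the fit with this block siHHEX 3 shares its number with no siNC sample, so the fold changes come from siHHEX 1 and 2 only. *NT5E*, an ectonucleotidase, was lower in every siHHEX sample, at 5.55, 9.16 and 12.4 FPKM against 15.3 and 15.5 FPKM. It passed in neither fit (adjusted p = 0.055 from limma, 0.202 after the correction), but did in 1 fit of all 8 samples and with the replicate number as a block. *GADD45A*, with a GC content of 57.8%, passed only after the correction (log2 fold change -0.18 and then -0.59, adjusted p = 0.346 and then 0.0435 from limma), and *FJX1* and *ARHGEF17* passed in neither fit.

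**Figure D3:**
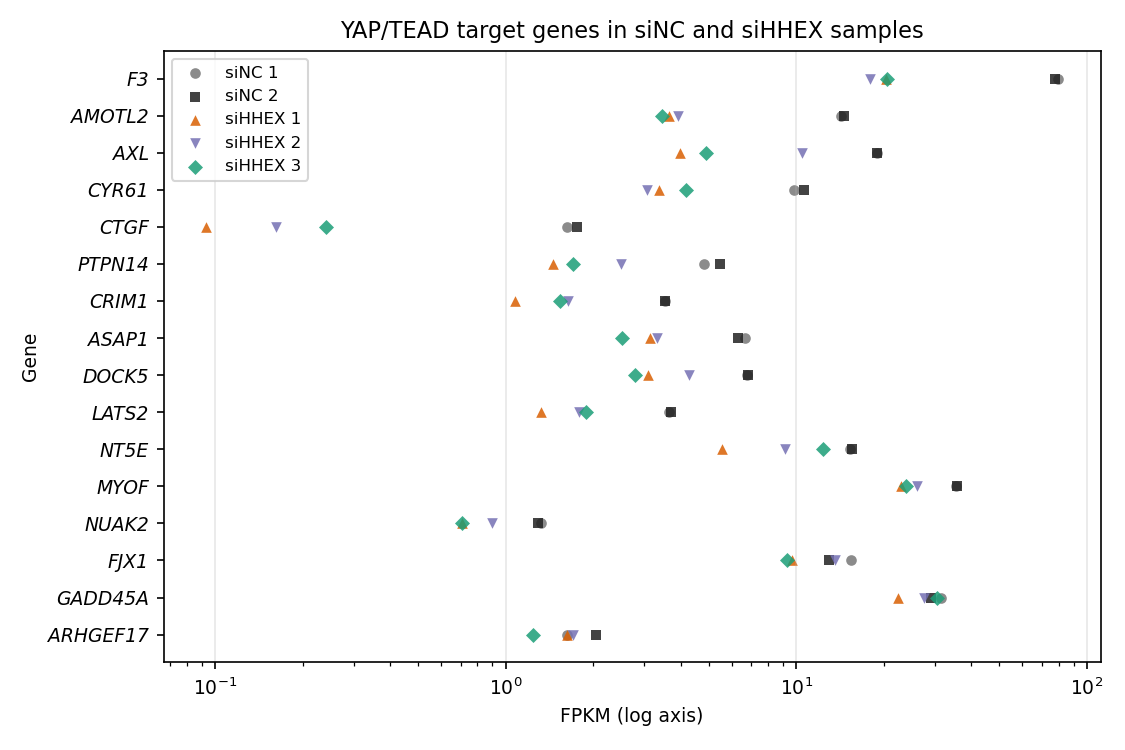
FPKM (log axis) of the 16 tested YAP/TEAD target genes, with 1 symbol per sample, ordered from the lowest log2 fold change at the top. The siHHEX symbols lie below both siNC symbols for 13 genes, and they overlap with siNC for *FJX1*, *GADD45A* and *ARHGEF17*.

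Promoters are shown for 3 of these genes that fell and have the core TEAD motif GGAATG, on either strand, in the 250 bases before the transcription start. They are read on the coding strand of GRCh38.p14 from RefSeq, with the motif, or its reverse complement, in capitals. The *CTGF* window (chr6:131951373-131951622, minus strand) has 3 copies, that of *NUAK2* (chr1:205321746-205321995, minus strand) 2 and that of *PTPN14* (chr1:214551603-214551852, minus strand) 1.
CTGF: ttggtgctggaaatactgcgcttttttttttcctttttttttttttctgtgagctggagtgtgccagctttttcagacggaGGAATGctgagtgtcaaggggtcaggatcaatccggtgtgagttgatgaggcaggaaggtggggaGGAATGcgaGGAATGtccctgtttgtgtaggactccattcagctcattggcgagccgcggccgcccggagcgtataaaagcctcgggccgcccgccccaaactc
NUAK2: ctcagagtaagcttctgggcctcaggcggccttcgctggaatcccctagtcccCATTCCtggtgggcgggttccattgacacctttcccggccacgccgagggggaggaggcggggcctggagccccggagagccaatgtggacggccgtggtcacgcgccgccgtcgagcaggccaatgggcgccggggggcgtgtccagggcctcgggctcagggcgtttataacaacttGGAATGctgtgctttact
PTPN14: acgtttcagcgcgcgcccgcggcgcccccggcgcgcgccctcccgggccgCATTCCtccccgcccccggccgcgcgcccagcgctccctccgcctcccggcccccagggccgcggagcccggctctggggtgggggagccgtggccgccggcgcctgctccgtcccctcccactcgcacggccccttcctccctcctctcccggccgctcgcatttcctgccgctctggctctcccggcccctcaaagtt

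The motif was in the window of 5 of the 10 tested target genes with a promoter in the RefSeq table (50%), *CTGF*, *NUAK2*, *PTPN14*, *AMOTL2* and *AXL*, the last 2 at a second start. It was in 14.3% of all 27305 promoters and in 12.7% of the 8449 tested genes with a promoter. Among the genes that fell it was in 213 of 1447 (14.7%) without the correction and in 63 of 341 (18.5%) with it, and among those that rose in 170 of 1385 (12.3%) and in 46 of 414 (11.1%). *F3* had no match in its window, and TEAD sites in distal enhancers are outside these windows.

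Of the 25 tested members of the Hippo core list (26 listed), 12 fell and 1 rose, against 16.9% and 16.4% of all tested genes. After the correction 6 fell and none rose, against 4.38% and 4.76%, and the median went from -0.47 to -0.23. *AMOTL2*, *PTPN14* and *LATS2*, which are also on the target list, made up 3 of these 6. The other 3 were *TEAD1*, *TEAD4* and *SAV1*. *TEAD1* was at 18.3 and 19 FPKM in siNC and at 6.99, 10.2 and 5.30 FPKM in siHHEX (log2 fold change -1.25, adjusted p = 0.0109 from limma, and -0.96 after the correction, adjusted p = 0.0238). *TEAD4*, with a GC content of 63.3%, was at 20.3 and 21.3 FPKM against 17.6, 19.5 and 20.8 FPKM, with overlapping groups, and passed only after the correction (adjusted p = 0.495 and then 0.0268 from limma). *YAP1* was at 20.2 and 19.7 FPKM against 5.77, 17.4 and 6.93 FPKM. The samples siHHEX 1 and 3 were far below siNC and siHHEX 2 was near it. The test did not pass (log2 fold change -1.07, adjusted p = 0.0564 from limma, 0.169 after the correction), although it did in 1 fit of all 8 samples. It also passed with the replicate number as a block, a fit that rests on siHHEX 1 and 2 only, which differed here. *WWTR1*, which encodes TAZ, was at 6.80 and 6.72 FPKM against 5.12, 6.12 and 8.55 FPKM, with overlapping groups. *STK4*, *LATS1*, *TAOK1* and *FRMD6* fell without the correction and not with it, and *TEAD2*, at 4.10 and 3.47 FPKM against 6.50, 8.02 and 7.18 FPKM, was the member that rose, also only without it. With no filter *TEAD1*, *STK4*, *LATS1*, *TAOK1* and *FRMD6* missed the threshold, and *FRMD6* also with the replicate number as a block.

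Of the proteins that HHEX is known to bind, 10 partner genes were tested. *AES*, a short Groucho family member, was at 45.2 and 44.9 FPKM in siNC and at 72.5, 78.1 and 99.7 FPKM in siHHEX and rose in both fits (log2 fold change 0.86 and 0.52, adjusted p = 0.00988 and 0.0349 from limma). The corepressor genes *TLE1* and *TLE3* had overlapping groups. *EIF4E*, the cap-binding protein, was at 8.06 and 7.84 FPKM against 4.45, 5.85 and 4.18 FPKM and fell only without the correction, and missed the threshold with no filter.

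The siYAP/TAZ samples give the level of these genes when *YAP1* and *WWTR1* themselves are targeted. In siYAP/TAZ 1 and 2 *CTGF* was at 0.209 and 0.0794 FPKM, *CYR61* at 2.00 and 3.37 FPKM, *AMOTL2* at 1.72 and 2.24 FPKM and *F3* at 11.3 and 10.4 FPKM. Tested against siYAP/TAZ in a fit of all 8 samples, 1445 genes were higher (14%) and 2634 lower (25.5%) in siHHEX, and after the correction 382 (3.72%) and 844 (8.22%). Of the 16 target genes, 3 were higher and 2 lower in siHHEX, and 1 and 1 after the correction. *F3* was higher in siHHEX than in siYAP/TAZ (log2 difference 0.80, adjusted p = 0.00363 from limma, and 0.97 after the correction, adjusted p = 0.00685). *AMOTL2* was higher by 0.65 without the correction (adjusted p = 0.00682 from limma) and did not pass with it (0.39, adjusted p = 0.0929). *HHEX* was lower in siHHEX by a log2 difference of -0.85 (adjusted p = 0.0149 from limma), *TEAD1* by -1.06 (adjusted p = 0.00634) and *HIPK3* by -1.25 (adjusted p = 0.00306), and each passed after the correction as well. *CCND1*, at 159 and 101 FPKM in siYAP/TAZ, did not pass (log2 difference -0.082, SE 0.204). The siNC samples take no part in these differences.

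Of the genes induced by ERK signalling, 14 were tested, and 6 fell and none rose without the correction and 4 and none with it, where 16.9% and then 4.38% of all tested genes fell. Besides *CCND1*, *DUSP5*, a nuclear ERK phosphatase, was at 111 and 113 FPKM in siNC and at 41.2, 27.2 and 65.8 FPKM in siHHEX (log2 fold change -1.39, SE 0.301, adjusted p = 0.0158 from limma). *EPHA2*, an ephrin receptor, was at 42.5 and 45.4 FPKM against 17.2, 22.3 and 32.3 FPKM. For both genes the siHHEX samples spread widely but stayed below siNC. *SPRY4*, a feedback inhibitor, passed after the correction (log2 fold change -0.51, adjusted p = 0.0493 from limma). Of these 2 fits it passed in that 1 alone. It also passed with the replicate number as a block, which rests on siHHEX 1 and 2 only. Of the 7 tested AP-1 factors, *FOSL1* was at 148 and 147 FPKM against 79.9, 82.6 and 104 FPKM and fell in both fits (log2 fold change -0.73 and -1.18, adjusted p = 0.0113 and 0.00435 from limma). Of the 2 fits, *JUNB* fell only in that with the correction, and *JUN* and *JUND* rose only in that without it. With the replicate number as a block *JUNB* passed as well and *JUN* did not. Of 7 tested EGFR family receptors and ligands, *EGFR* (6.39 and 7.25 FPKM against 3.86, 3.87 and 2.28 FPKM) and the ligand *TGFA* fell in both fits. With no filter *DUSP5*, *EPHA2*, *JUN*, *EGFR* and *TGFA* missed the threshold.

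Of 18 tested matrix and matricellular genes, 8 fell and 3 rose, and after the correction 8 fell and none rose, with a median of -0.38 and then -0.39. Over all tested genes 16.9% fell and 16.4% rose, then 4.38% and 4.76%, so the rises in this list were near the share of all genes. These 8 were the same genes in both fits, and besides *CTGF* and *CYR61* they included the laminin chains *LAMA5*, *LAMB3* and *LAMC1*, the collagen *COL12A1* and the antiangiogenic glycoprotein gene *THBS1*. *THBS1* was at 3.16 and 3.28 FPKM in siNC and at 1, 1.04 and 0.918 FPKM in siHHEX (log2 fold change -1.09, SE 0.113, adjusted p = 0.00508 from limma), with the siHHEX samples close together. *LAMA5*, with a GC content of 65.7%, was at 12.9 and 12.7 FPKM against 7.53, 7.82 and 9.07 FPKM, and so fell against the GC trend. Of 9 tested integrins, *ITGA2*, *ITGA6* and *ITGB5* fell in both fits, and *ITGAV* and *ITGB1* only without the correction. *ITGA6*, which pairs with the β4 chain in hemidesmosomes, was at 24.3 and 23.9 FPKM against 8.04, 10.4 and 11.4 FPKM (log2 fold change -1.21, adjusted p = 0.00645 from limma, and -0.89 after the correction, adjusted p = 0.0212). Of 6 tested genes of caveolae, 2 fell without the correction and 1 with it, none rose, and the median was -0.044 (0.029 with median scaling) and then -0.31. The member that fell in both fits was *CAV1*, the main protein of caveolae, at 188 and 180 FPKM against 60.3, 91.2 and 76.4 FPKM. Of 28 tested actin and focal adhesion genes, 5 fell and 3 rose, shares near those of all tested genes, and 6 fell and 1 rose after the correction. *VCL*, *MYL12A* and *MYL12B* fell in both fits, while the tropomyosin *TPM4* rose in both, from 27.0 and 26.4 FPKM to 60, 65.4 and 69.7 FPKM (log2 fold change 1.25, SE 0.113, adjusted p = 0.00437 from limma). Of 11 tested genes of the tissue factor and plasminogen system, 6 fell without and 4 with the correction and none rose. Those that fell in both fits included *F3* and *F2RL1*, a protease-activated receptor, while *S100A10*, a partner of annexin A2, fell only with the correction. With no filter *LAMB3*, *ITGB5* and *VCL* missed the threshold.

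Among subunits and assembly factors of the mitochondrial respiratory chain and the ATP synthase, rises far outnumbered falls. Taken over the 4 lists, 102 genes were tested, and 41 rose and 1 fell, 25 and none after the correction. Of all tested genes 16.4% rose and 16.9% fell, then 4.76% and 4.38%. The median log2 fold change was 0.26 and then 0.19, and 72 and then 84 of the 102 were positive. In complex I, which takes electrons from NADH, 21 of 46 rose (11 after the correction), in complex IV, cytochrome c oxidase, 9 of 26 (7), in complexes II and III 5 of 13 (1), and in the ATP synthase 6 of 17 (6). The 1 rise in complexes II and III after the correction is close to the share of all genes, and *COX7A2* missed the threshold with no filter. *NDUFB2* of complex I was at 172 and 163 FPKM in siNC and at 280, 259 and 299 FPKM in siHHEX (log2 fold change 0.74, SE 0.102, adjusted p = 0.00691 from limma, and 0.92 after the correction, adjusted p = 0.0075). *COX7A2* of complex IV, with a low GC content of 38.8%, was at 124 and 131 FPKM against 222, 167 and 205 FPKM, and *ATP5MC3* of the ATP synthase, at 39%, at 37.7 and 39.6 FPKM against 68.6, 55.5 and 63.0 FPKM. Both rose against the GC trend, and their log2 fold changes were larger after the correction, 0.93 and 1.07, than before, 0.62 and 0.67. *NDUFB7*, with a GC content of 64.9%, did the reverse, with 0.83 before and 0.19 after, where it did not pass (adjusted p = 0.28 from limma). In complex I the median change was 0.27, 0.28 and 0.33 in siHHEX 1, 2 and 3, and 0.20, 0.22 and 0.25 after the correction, so the samples were alike, and the genes are short, with a median exon length of 2852 bases against 5306 for all tested genes.

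Among ribosomal protein genes, rises also outnumbered falls. Of 83 tested cytosolic ribosomal proteins 34 rose and 5 fell, and 21 rose and 1 fell after the correction, with a median of 0.23 and then 0.11. The counts of this and the next lists stand against rises of 16.4% and falls of 16.9% over all tested genes, then 4.76% and 4.38%. *RPS10* was at 618 and 571 FPKM in siNC and at 961, 883 and 1036 FPKM in siHHEX (log2 fold change 0.69, SE 0.099, adjusted p = 0.00754 from limma, 0.56 after the correction). *RPS29* was at 44.5 and 46.0 FPKM against 80.0, 61.6 and 77.3 FPKM. Ribosomal protein genes have many processed pseudogenes, and how the counting shared reads with them is not given in the sources used here. Of 78 mitochondrial ribosomal proteins 27 rose and 4 fell, then 12 and none, and *MRPL52* was at 10.4 and 8.83 FPKM against 18.5, 15.1 and 17.4 FPKM. Among genes for building ribosomes, falls outnumbered rises. Of 53 genes of ribosome biogenesis and RNA polymerase I, 20 fell and 3 rose, and 11 fell and none rose after the correction, with a median of -0.38 and then -0.23. *RRN3*, the initiation factor of RNA polymerase I, was at 37.5 and 32.8 FPKM against 19.3, 16.4 and 15.6 FPKM (log2 fold change -1.0, SE 0.135, adjusted p = 0.0069 from limma), and the nucleolar helicase *DDX21* at 95.4 and 96.6 FPKM against 44.9, 56.0 and 42.2 FPKM. Both fell after the correction as well, by 0.65 on the log2 scale.

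Genes of the response to amino acid shortage and ER stress that ATF4 drives rose in part. Of 27 tested, 9 rose and 1 fell, and 5 rose and none fell after the correction, where 16.4% and then 4.76% of all tested genes rose. The median change was 0.64 in siHHEX 1 but 0.20 and 0.16 in siHHEX 2 and 3, and 0.39, 0.092 and 0.019 after the correction. *PHGDH*, the first enzyme of serine synthesis, was at 4.33 and 4.91 FPKM in siNC and at 13.6, 9.22 and 10.1 FPKM in siHHEX, and *PSPH*, the last, at 9.21 and 9.18 FPKM against 14.9, 16.1 and 15.1 FPKM. Both rose in both fits (log2 fold change 1.08 and 0.68 without the correction, adjusted p = 0.00879 and 0.00966 from limma). *DDIT4*, an inhibitor of mTORC1, was at 12.5 and 12.7 FPKM against 48.5, 26.2 and 27.6 FPKM, and *ATF4* at 51.2 and 53.3 FPKM against 122, 68.5 and 82.8 FPKM. The siHHEX 1 sample was the highest for both, and neither passed after the correction (adjusted p = 0.0562 and 0.241 from limma) or with no filter. *CHAC1*, a glutathione-degrading enzyme, was at 5.59 FPKM in siHHEX 1 and at 1.42 and 1.78 FPKM in siHHEX 2 and 3, against 0.70 and 0.999 FPKM in siNC, and passed in neither fit.

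Over all tested genes the share called went from 16.4% up and 16.9% down to 4.76% and 4.38% with the correction, and the counts of the following lists are to be read against these shares. Of 19 tested genes of cohesin and condensin, the ring complexes that hold and fold chromosomes, 11 fell and 1 rose, and none was called after the correction, where the median went from -0.44 to -0.041. These genes have a median GC content of 38.8%. *RAD21* was at 105 and 101 FPKM in siNC and at 62.6, 77.1 and 48.3 FPKM in siHHEX, with siHHEX 2 nearest to siNC (log2 fold change -0.73, adjusted p = 0.0216 from limma, and -0.27 after the correction, adjusted p = 0.17), and it missed the threshold with no filter. Homologous recombination and Fanconi genes went from 8 falls and 1 rise among 32 to 1 fall and no rise, and their median from -0.29 to 0.035. Splicing factors went from 23 falls and 9 rises among 74 to 3 and 6, heat shock proteins and chaperonins from 10 falls and 1 rise among 26 to 1 and none, RAB GTPases from 14 falls and 6 rises among 45 to no fall and 1 rise, and cholesterol synthesis from 9 falls and 5 rises among 26 to no fall and 1 rise, that of *TM7SF2*. Mitosis genes had 17 falls and 2 rises among 43 without the correction and 6 and 2 with it. The cytokinesis gene *ANLN* was at 42.8 and 42.4 FPKM against 20.9, 23.4 and 18.6 FPKM and fell in both fits (log2 fold change -0.99 and -0.60, adjusted p = 0.00645 and 0.0166 from limma), as did the RhoA activator *ECT2*. For the genes not called after the correction, an effect of *HHEX* that follows GC content and the trend itself cannot be told apart.

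**Figure D4:**
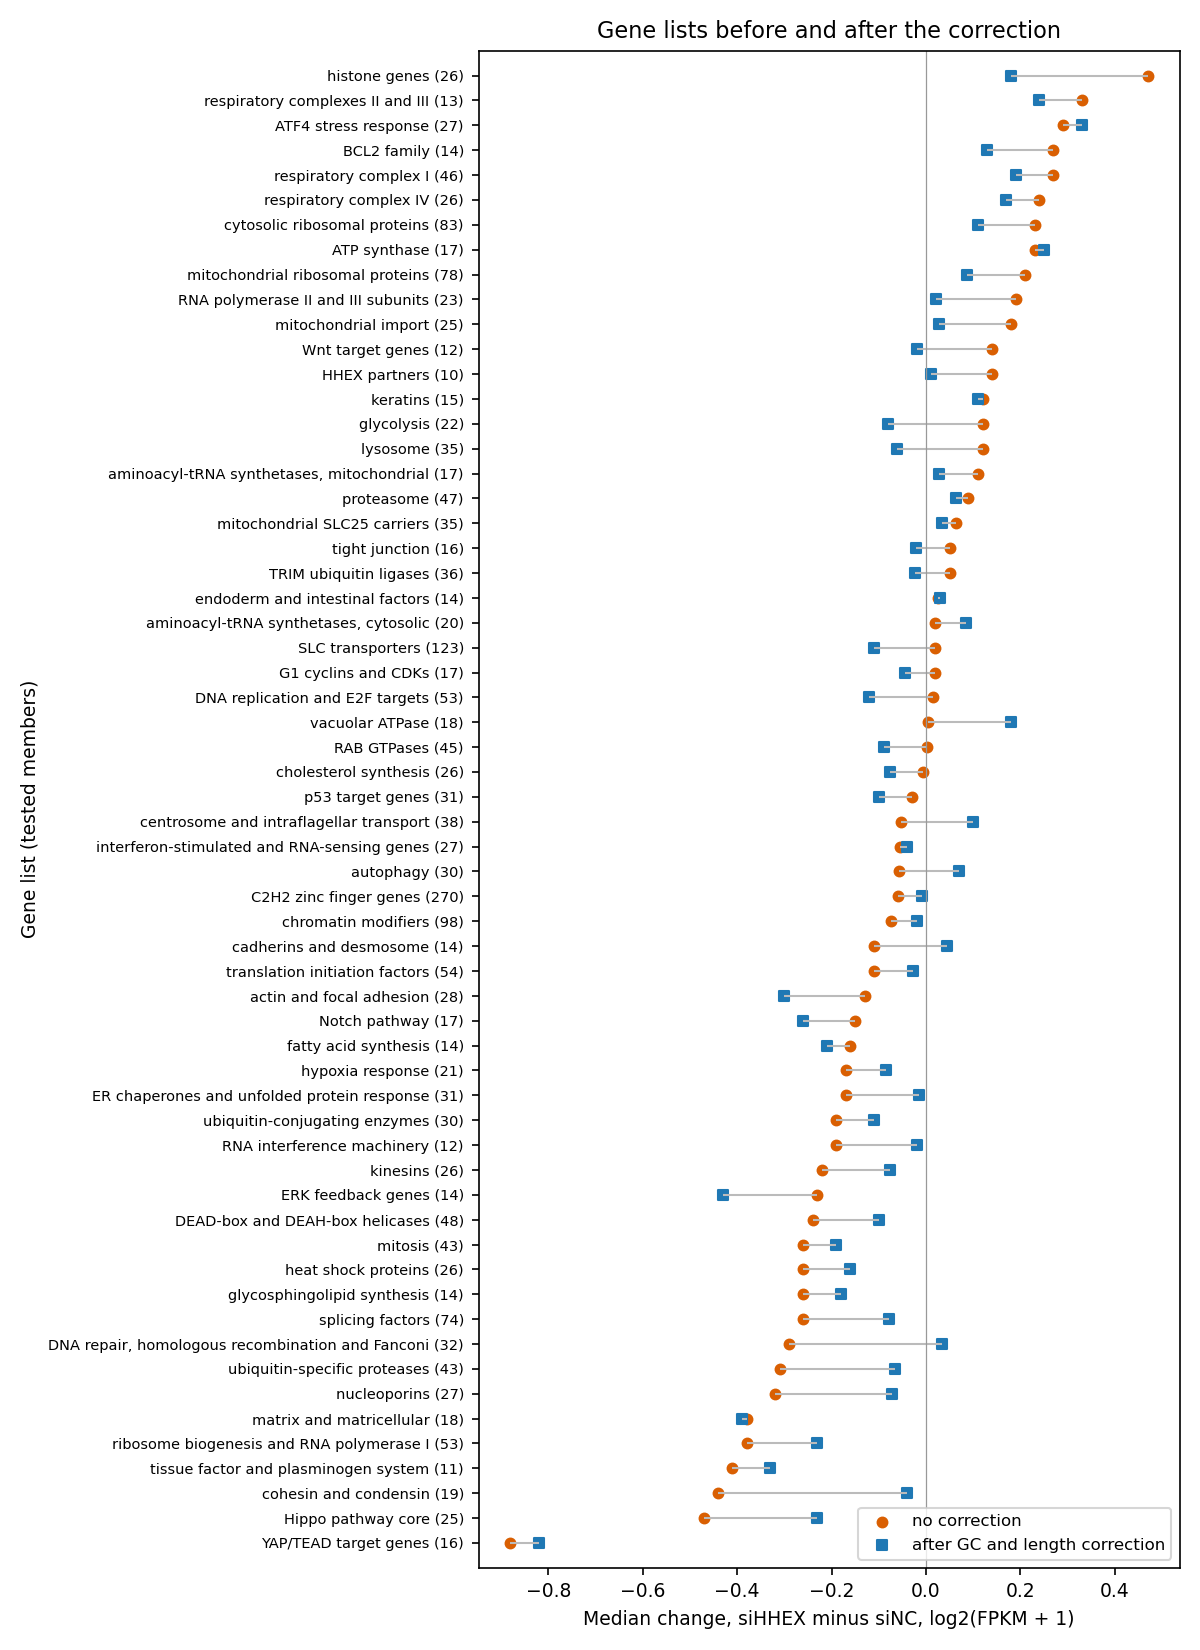
Median change (siHHEX minus siNC, in units of log2(FPKM + 1)) of each gene list with at least 10 tested members, with the number of tested members in parentheses, without the correction (circles) and after it (squares). The YAP/TEAD target genes are the lowest in both, at -0.88 and -0.82, while cohesin and condensin moved from -0.44 to -0.041.

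The siHHEX samples were set against each other with separate siNC samples, so that no control was shared. Across 10321 genes, Pearson's r between the change in siHHEX 1 (against siNC 1) and in siHHEX 3 (against siNC 2) was 0.83, and 0.82 with the siNC samples exchanged. For siHHEX 1 and 2 it was 0.756 and 0.754, and for siHHEX 2 and 3 it was 0.735 and 0.725. After the correction the coefficients were 0.683 and 0.673, 0.632 and 0.618, and 0.566 and 0.569, each lower than before. Against the siNC mean, siHHEX 3 had 256 genes over 2-fold higher and 354 over 2-fold lower, siHHEX 1 had 99 and 237, and siHHEX 2 had 69 and 62. After the correction these counts were 64 and 108, 42 and 120, and 25 and 44, so siHHEX 1 then had more genes lower than siHHEX 3. The sample with the most *HHEX* of the 3, siHHEX 2, had the fewest in both. Its *HHEX* was close to that of siHHEX 1, at 3.54 and 3.25 FPKM. With 1 sample per siRNA, a relation to the level of *HHEX* was not tested. Directly between siHHEX samples, 45 genes differed by more than 2-fold for siHHEX 1 and 2, 56 for siHHEX 1 and 3, and 118 for siHHEX 2 and 3, against 125 to 684 genes between a siHHEX and a siNC sample. After the correction 34, 41 and 71 genes did, against 76 to 180. Within the genes described, *F3*, *AMOTL2*, *THBS1* and *DKK1* were at nearly the same level in all siHHEX samples, and *YAP1*, *AXL*, *DUSP5* and *CHAC1* were not. *DKK1*, a secreted Wnt inhibitor, was at 366 and 348 FPKM in siNC and at 164, 181 and 178 FPKM in siHHEX (log2 fold change -1.03, SE 0.0965, adjusted p = 0.00437 from limma).

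**Figure D5:**
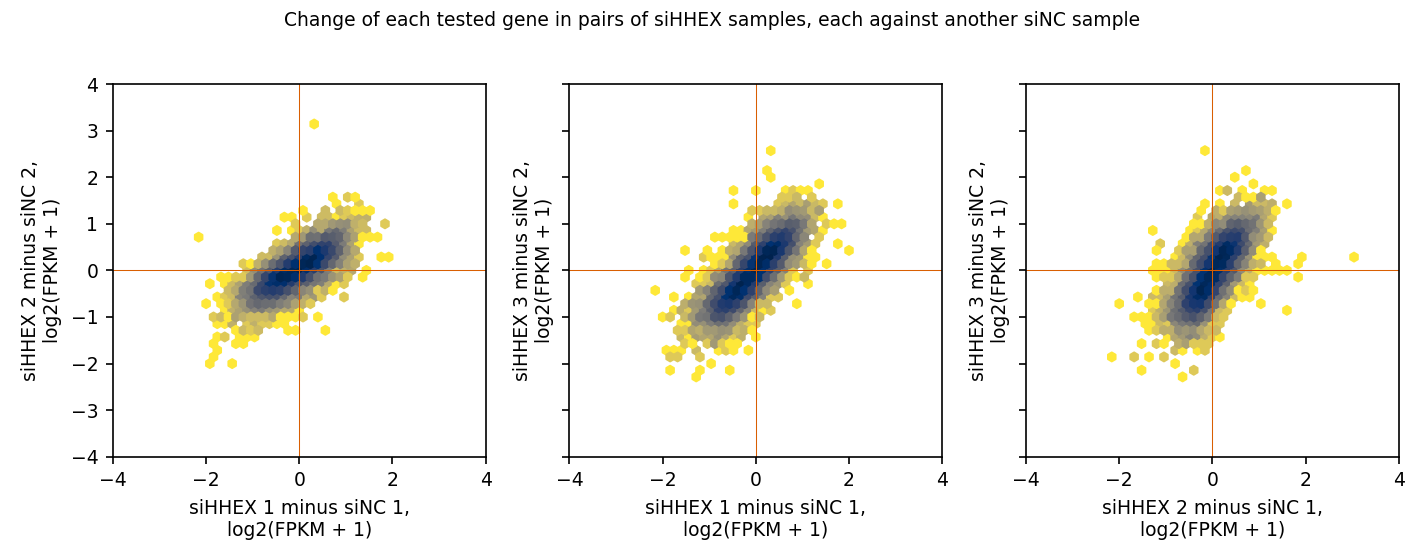
Change of each of 10321 genes, in units of log2(FPKM + 1), in 1 siHHEX sample against siNC 1 (x axis) and in another against siNC 2 (y axis), shaded by the number of genes per hexagon on a log scale. The clouds lie along the rising diagonal, with Pearson's r of 0.756, 0.83 and 0.735 from left to right.

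Words that match an siRNA seed in 3′ UTRs were set beside these differences, since an siRNA can lower transcripts through its seed. In siHHEX 1 the median change of the 1228 genes whose 3′ UTR has its seed match differed from that of the other 8673 by -0.38 before and -0.091 after the correction. In siHHEX 2 the difference for its own word was -0.21 and then -0.029, and in siHHEX 3 -0.30 and then -0.0073. The words were also set against the samples with another siRNA. The word of siHHEX 2 had larger differences there than in its own sample, -0.53 and then -0.15 in siHHEX 3 and -0.35 and then -0.046 in siHHEX 1. The word of siHHEX 3 had smaller ones before the correction and larger ones after it, -0.21 and then -0.085 in siHHEX 2 and -0.23 and then -0.01 in siHHEX 1. That of siHHEX 1 had -0.39 and then -0.027 in siHHEX 3 and -0.18 and then -0.018 in siHHEX 2, so that only after the correction were both smaller than in its own sample. The words are those of the transcript and of the siRNAs in the methods. An siRNA of the version in the supplementary list would have another seed for siHHEX 1 and 2. The word of siHHEX 3 also assumes pairing over its whole listed length. Genes with these words have a GC content of 42.6 to 44.1% at the median, against 49.4 to 50% for those without. For each sample's own word the difference was smaller after the correction.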

How the data were processed

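RNA was extracted with Trizol, and the authors deposited 1 FPKM value per gene and sample. The submitters' processing notes name Trimmomatic 0.36, HISAT2 2.0.5, Cufflinks 2.2.1 and HTSeq 0.9.1, while the genome build, the annotation and the strandedness are not given in the sources used here. The study tested counts, which were not analysed here, so the number of reads behind a value is unknown and no counting interval is given. The FPKM of the 5 samples summed to between 345773 and 383423, and between 9990 and 10128 genes per sample reached 1 FPKM. A gene was tested with at least 1 FPKM in at least 2 of the 5 samples, leaving 10321 of 20030 rows, of which 17 carry a date in place of a symbol and are not named. limma 3.58.1 in R 4.3.3 was fitted to log2(FPKM + 1) with the group as the only term and a variance trend, and p-values were adjusted over all tested genes (threshold 0.05). For the correction, each sample's deviation from the mean of the samples was modelled by natural splines (4 degrees of freedom each) on the GC content and the log2 length of the exons (GENCODE, GRCh38) and the fit was taken off, for the 10268 tested genes with both. The fit and the correction were tested on simulated data, the results of which are not given here. Figures and counts used Python 3.11.15 with pandas 2.3.3, numpy 2.4.6, scipy 1.17.1 and matplotlib 3.10.9.

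The comparison, its 65 gene lists and its rules were chosen with earlier results of these data known, so the lists are described by counts and medians without a test. Named genes are *HHEX*, the 10 lowest and 10 highest log2 fold changes among genes called with and without the correction whose groups do not overlap, the 5 lowest and 5 highest without it, the 4 members of each list with the largest change, any member of a list of at most 30 genes, and the markers of cell types; some genes that meet this rule are not reported here. Genes set beside these in the comparison with siYAP/TAZ come from the same lists. The labels of siNC and siHHEX share the numbers 1 and 2. Same-numbered samples did not deviate together across genes (correlations of 0.0242 and -0.0752). With 2 siNC samples, whose deviations from their mean mirror each other, these values cannot settle whether samples were paired. The numbers were left out of the main tests and used only in the settings with a block. The settings varied were the pseudocount (0.1), the filter (none, or a mean of at least 5 FPKM), all 8 samples in 1 fit, median scaling, the replicate number as a block, the correction, and each sample left out. Leaving out samples after the correction, a correction without length, and GC content from the longest transcript were added after the data were seen.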

Additional observations from a re-analysis of the deposited data

How the results depend on the processing

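The counts of genes changed by adjusted p from limma, 1696 that rose and 1749 that fell, were 752 and 543 with no filter, where 15685 genes were tested, 489 and 450 with the GC and length correction, and 768 and 847 with this correction and the replicate block together. With 1 sample left out they ranged from 0 to 2446 and from 4 to 2898. The counts by the study's criterion, 75 and 98, were 204 and 244 with a pseudocount of 0.1, 119 and 61 with median scaling, 17 and 49 with the correction, and 14 and 60 with the correction and the block, and ranged from 55 to 129 and from 78 to 224 with 1 sample left out. After the correction the counts ranged from 0 to 887 and from 2 to 1139 with 1 sample left out. The calls of *HHEX* kept their direction, with log2 fold changes from -1.50 to -1.16 when a sample was left out, and lost the threshold without either siNC sample. The siHHEX against siYAP/TAZ counts of 1445 and 2634 were 382 and 844 with the correction, and the coefficients between siHHEX samples of 0.756, 0.754, 0.83, 0.82, 0.735 and 0.725 were 0.632, 0.618, 0.683, 0.673, 0.566 and 0.569. The causes of these differences were not tested.

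With the replicate number as a block, siHHEX 3 was alone in its block and added nothing to the fold changes. That of *HHEX* was -1.16, as without siHHEX 3. In this fit 1581 genes rose and 1586 fell, and 56 and 84 by the study's criterion. Of the calls made without the block, 2858 were shared. *YAP1* passed with the block (log2 fold change -0.91, adjusted p = 0.0215 from limma), as did *NT5E*, *JUNB*, *SPRY4* and *CHAC1*, while *NUAK2*, *FRMD6*, *JUN* and *CDX2* no longer did. *NUAK2* also missed the threshold with median scaling. With no filter 24 of the 88 named genes called no longer passed, among them *AXL*, *TEAD1*, *DUSP5* and *COX7A2*, and in 1 fit of all 8 samples *YAP1* and *NT5E* passed as well. After a correction for GC content alone, added after the data were seen, 526 genes rose and 482 fell, and 535 and 470 with GC content and length of the longest transcript. Leaving aside the alternatives added after the data were seen, no gene named here that was called without the correction changed direction where it had a value. Limits of these data include the number of samples, with 2 siNC samples and 1 sample per siRNA, the unknown depth and the trend on GC content.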

Other observations

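Of 22 tested genes of glucose use, 6 rose and 5 fell without the GC and length correction, and 1 rose and 4 fell with it, where the shares of all tested genes were 16.4% and 16.9% and then 4.76% and 4.38%. The median log2 fold change of the list turned from 0.12 to -0.08 with the correction. *PFKL*, the liver form of phosphofructokinase, was at 10 and 10.9 FPKM in siNC and at 27.1, 25.8 and 25.6 FPKM in siHHEX, so the siHHEX samples were alike and well above siNC (log2 fold change 1.24, SE 0.114, adjusted p = 0.00437 from limma). The glucose transporter gene *SLC2A1* was at 184 and 198 FPKM against 107, 139 and 123 FPKM, and *HK2*, a hexokinase, at 15.4 and 15.1 FPKM against 8.84, 10.3 and 9.82 FPKM. Both fell with and without the correction, as did the lactate transporter gene *SLC16A1*, and the other lactate transporter gene *SLC16A3* fell only with it.

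The ID genes, which encode inhibitors of basic helix-loop-helix factors, moved in opposite directions. *ID1* was at 88.6 and 83.8 FPKM in siNC and at 153, 138 and 163 FPKM in siHHEX and, unlike *ID3*, rose only without the correction (log2 fold change 0.80 and then 0.32, adjusted p = 0.0069 and then 0.0568 from limma). *ID2* was at 57.4 and 53.7 FPKM against 26.6, 40.7 and 20 FPKM and fell in both fits (log2 fold change -0.97 and then -1.22, adjusted p = 0.025 and then 0.0396 from limma), but missed the threshold with no filter. *SMAD7*, an inhibitor of TGF-β and BMP signalling, was at 2.52 and 2.08 FPKM against 0.576, 0.90 and 1.12 FPKM and also fell in both. Of 17 tested G1 cyclins, CDKs and their regulators, *CCNE2*, cyclin E2, was at 12.2 and 10.1 FPKM against 4.61, 5.22 and 4.37 FPKM and fell in both fits, while *CDK4*, the kinase partner of cyclin D1, was at 131 and 138 FPKM against 211, 190 and 205 FPKM and rose in both.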
